A study of Bos taurus with 16 samples.

Results

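DLK2 and 9 genes of the Notch pathway were followed through the round and sirloin muscles of newborn Hanwoo calves. The 10 genes were the receptors NOTCH1, NOTCH2 and NOTCH3, the ligands JAG1, DLL1 and DLL4, the target genes HES1, HEY1 and HEYL, and DLK2. They were picked by symbol from 34109 listed genes, and all 10 matched a gene ID in the tables of both muscles. DLK2 joined them because it stood among the genes the study called in round muscle, so its diet values in round muscle describe how it was chosen and carry no test here.

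The data were 16 bulk RNA-seq libraries, 1 of round and 1 of sirloin muscle from each of 8 male Hanwoo calves sampled at birth. In the control group, 4 calves came from cows on a diet given as 100% of the nutritional requirement. In the treated group, 4 calves came from cows on a diet given as 150% of it from mid to late pregnancy. These percentages name the diets and are not measured shares of the requirement. All calves were of the same breed and were killed for sampling before they had taken colostrum. The total count per library was between 44473011 and 72446933.

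Notch receptors sit in the cell membrane and are activated when a neighbouring cell presents a Delta or Jagged ligand. The receptor is then cut, and its inner part moves to the nucleus, where with RBPJ it switches on repressors of the HES and HEY families. In muscle the pathway is known for keeping satellite cells, the stem cells of the fibre, from differentiating, and it also patterns the vessel wall. DLK2 and its paralog DLK1 resemble Delta but lack the domain through which canonical ligands activate the receptor, and both are described as modulators of Notch and of fat cell differentiation.

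Some libraries stood apart. Myofibre markers (ACTA1, CKM, TTN and 5 myosin heavy chain genes) summed to 42641 to 81264 TPM (transcripts of a gene per 1000000, scaled by length) in every library, as in skeletal muscle. Control replicate 2 had the largest totals in both muscles (72446933 and 72165291 counts). Its TPM values summed to 1000000, whereas those of the other 14 libraries summed to 999756 to 999858. Its round library carried 1503 TPM of 6 fibroblast markers, including COL1A1 and DCN, against 154 to 621 TPM elsewhere, and 221 TPM of 8 tendon markers against 25.2 to 58.8 TPM. The sirloin library of treated replicate 4 carried 3777 TPM of 5 adipocyte markers, ADIPOQ, PLIN1, FABP4, LEP and CIDEC, against 0.730 to 15.0 TPM in every other library, and 239 TPM of 10 endothelial markers against 79.9 to 153 TPM.

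On the TPM scale, which accounts for transcript length, the mean of both muscles over 8 calves ran from 11.8 ± 4.03 TPM (SD, n = 8) for HES1 to 1.64 ± 1.25 TPM for NOTCH3. Between them stood HEYL at 7.48, DLL4 at 5.70, NOTCH1 at 4.88, HEY1 at 4.69, JAG1 at 3.77, DLL1 at 3.10, NOTCH2 at 2.86 and DLK2 at 1.68 TPM. HES1 and HEYL thus led the order, and DLK2 and NOTCH3 closed it. The place of DLL4 rested on treated replicate 4, since without that calf its mean was 4.31 TPM, below HEY1 at 4.82 and NOTCH1 at 4.65 TPM. Across the order the levels were apart, and the lowest calf for HES1, at 6.48 TPM, lay above the highest for NOTCH3, at 4.18 TPM, and for DLK2, at 3.64 TPM. No pair of neighbours differed by more than the SD of their difference across calves. HES1 exceeded HEYL by 4.35 ± 4.92 TPM (SD, n = 8) and was the higher in 6 of 8 calves, and DLK2 exceeded NOTCH3 by 0.042 ± 1.84 TPM.

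**Figure D1:**
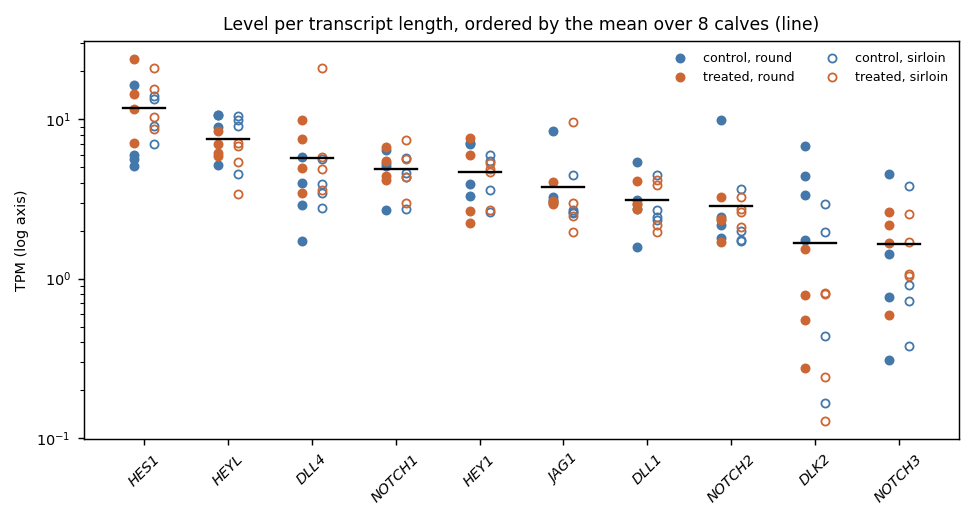
TPM on a log axis for each of the 10 genes in 16 libraries, ordered by the mean over 8 calves (black line), with filled points for round and open points for sirloin muscle and blue for control and orange for treated calves. The 10 means lie between 1.64 and 11.8 TPM, and DLK2 and NOTCH3 spread the widest on this axis.

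DLK2 was lower in round muscle of treated calves than in any control calf. Its level in CPM (reads of a gene per 1000000 counted reads, with TMM normalization over all 16 libraries) was 1.93, 3.89, 7.07 and 3.65 in the round muscle of control replicates 1 to 4, from 80 to 300 reads. In treated replicates 1 to 4 it was 1.51, 0.72, 0.53 and 0.29 CPM, from 14 to 95 reads. The groups did not overlap, as was the case for 1.76% of the 21677 genes tested in round muscle. Since DLK2 was chosen on this contrast, its separation and its range with 1 calf left out are a description and carry no test. The log2 fold change of treated over control was -2.39, and leaving out any 1 calf kept it between -2.98 and -2.01. Since the tissue was sequenced whole, fewer cells that express a gene and less of its RNA per cell cannot be told apart.

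In sirloin muscle, which did not enter the choice of DLK2 but came from the same calves, the groups overlapped. Control replicates 1 to 4 had 3.15, 0.16, 0.45 and 1.87 CPM of DLK2, and treated replicates 1 to 4 had 0.14, 0.70, 0.73 and 0.23 CPM. Control calves 1 and 4 were high, and control calves 2 and 3 lay within the treated range. The log2 fold change was -1.63 with a standard error of 0.86 and a 95% interval of -3.51 to 0.26, which did not pass the threshold (adjusted p = 0.876, edgeR). Without control replicate 1 it was -0.86, and without control replicate 2 it was -2.02. The unadjusted p was below 0.05 without control replicate 2, by DESeq2 and in the fit of all 16 libraries, and the adjusted p passed in none of the settings run.

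Of the 10 genes DLK2 also had the widest gap between the muscles, with values that again involve the round control libraries and carry no test. Its log2 difference of round over sirloin was 1.16, and between 0.73 and 1.68 with 1 calf left out. Control replicate 2 had 3.89 CPM in round and 0.16 CPM in sirloin, and control replicate 3 had 7.07 and 0.45 CPM, whereas control replicate 1 was higher in sirloin. The diet effect in round minus that in sirloin was -0.80 with a standard error of 1.07 on the log2 scale. It ran from -1.79 without control replicate 1 to -0.0932 without control replicate 3.

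**Figure D2:**
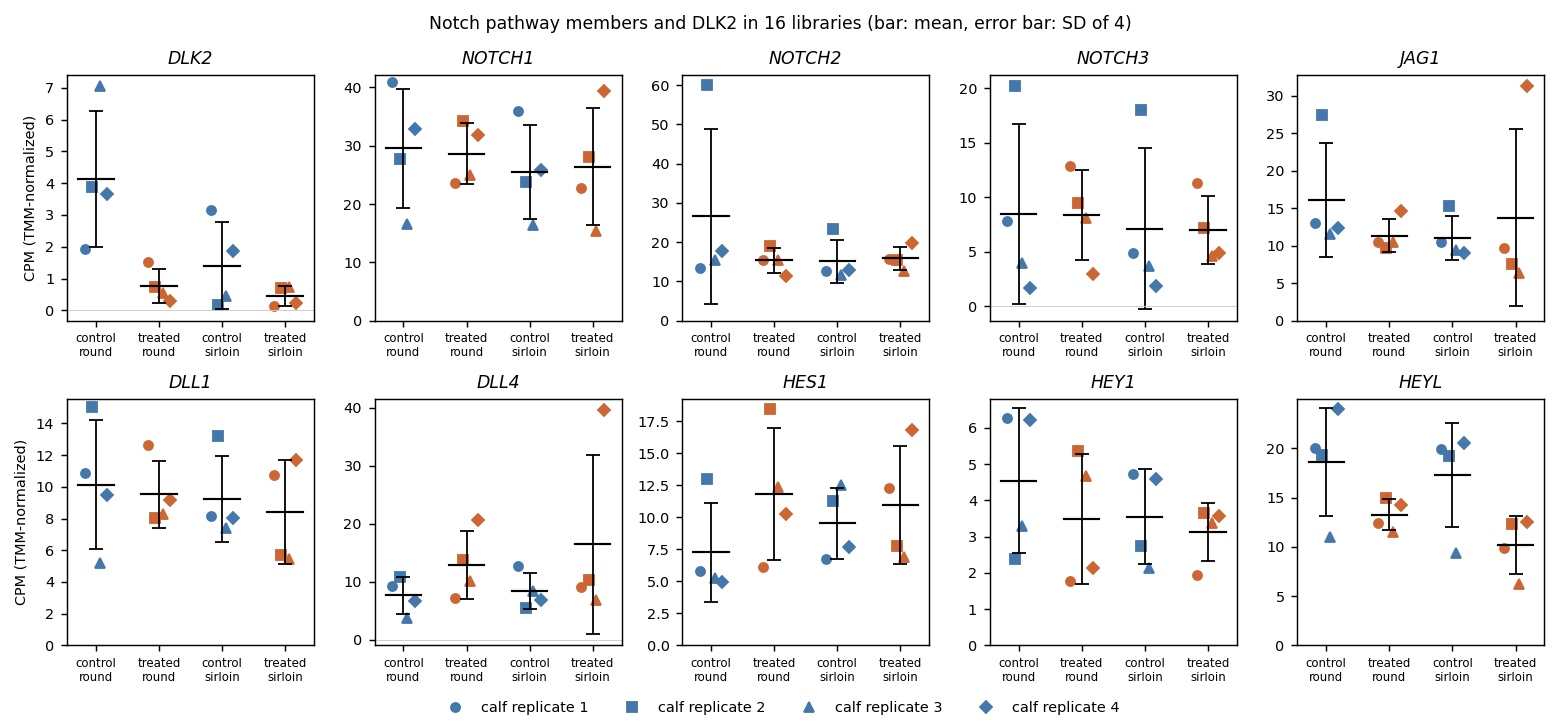
CPM (TMM-normalized) of DLK2, the receptors, ligands and target genes in the 4 groups, with 1 point per library, marker shapes for the calf replicate number, a bar at the mean and an error bar of 1 SD (n = 4). DLK2 separates the diets in round muscle, the contrast it was chosen on, with control calves from 1.93 and treated calves up to 1.51 CPM. Single libraries of control replicate 2 and treated replicate 4 stand above their groups for NOTCH2, JAG1 and DLL4.

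None of the 9 Notch pathway members passed the threshold for diet in round muscle by edgeR (adjusted p below 0.05), where 0.0185% of all genes did. None had an unadjusted p below 0.05 either, against 4.41% of all genes, and DESeq2, limma-voom and limma on TPM gave 0 members at both thresholds. Under other edgeR settings some did, none past the adjusted threshold. They were HES1 with the replicate block (795 of all 21677 genes), and DLL4 and HES1 without control replicate 2 (1145 of 21283) or treated replicate 1 (866 of 21480). NOTCH2 was another without control replicate 1 (1262 of 21514), and HEYL without control replicate 3 (705 of 21561). In sirloin muscle edgeR again called 0 of 9, with 0.00918% of all genes called. HEYL alone had an unadjusted p below 0.05 there, against 3.91% of all genes, and did so in DESeq2 and limma-voom but not in limma on TPM, and these 3 tools called 0 of 9. With a calf left out, edgeR also gave NOTCH3 without control replicate 2 (1028 of all 21421 genes). It gave DLL4 without treated replicate 3 (999 of all 21539 genes). Groups did not overlap for 0 of the 9 genes in round (1.76% of all genes) and 0 of 9 in sirloin muscle (1.68% of all genes). The median log2 fold change of the 9 was -0.06 in round and 0.04 in sirloin muscle, beside 0.02 and 0.03 over all genes tested.

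**Figure D3:**
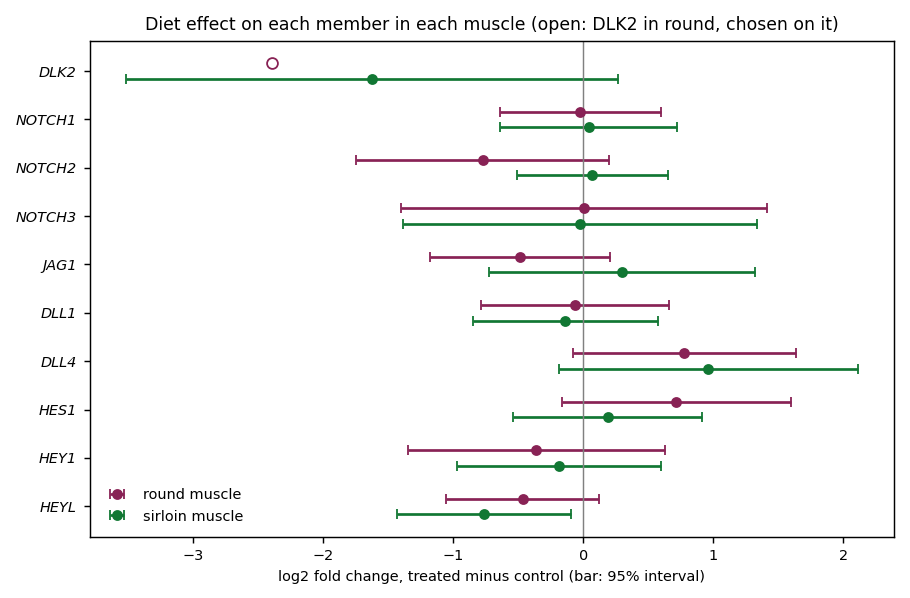
Log2 fold change of treated over control calves for each gene in round and sirloin muscle, with 95% intervals from edgeR's fit, and an open point without interval for DLK2 in round muscle because the gene was chosen on that value. Apart from HEYL in sirloin muscle, at -0.76, every interval drawn spans 0.

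Of the ligands, DLL4, which marks endothelial cells at the front of growing vessels, had higher means in treated calves in both muscles. Control replicates 1 to 4 had 9.27, 10.89, 3.76 and 6.62 CPM in round, and treated replicates 1 to 4 had 7.17, 13.77, 10.05 and 20.72 CPM. For sirloin these were 12.63, 5.48, 8.38 and 6.89 CPM and, after the treated diet, 9.04, 10.32, 6.77 and 39.55 CPM. Treated replicate 4 was the highest in both muscles, and the groups overlapped in both. The log2 fold change was 0.78 (SE 0.39, 95% interval -0.08 to 1.63) in round and 0.96 (SE 0.52, 95% interval -0.19 to 2.11) in sirloin muscle, and edgeR's adjusted p-values were 0.864 and 0.876. Without treated replicate 4 the sirloin value was 0.07 and the round value 0.43. That sirloin library was also the one with the most endothelial and adipocyte marker RNA, and their part in the DLL4 value was not tested.

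JAG1, a Jagged ligand prominent in the vessel wall, moved with single libraries. In round muscle control replicate 2 had 27.46 CPM and the other control calves 11.56 to 13.02 CPM, beside 9.71 to 14.56 CPM in treated calves. In sirloin muscle treated replicate 4 had 31.33 CPM and the other treated calves 6.32 to 9.63 CPM, beside 9.04 to 15.28 CPM in control calves. The spread of the control round and treated sirloin groups was thus set by 1 calf each. The log2 fold change was -0.49 (SE 0.32) in round and 0.30 (SE 0.46) in sirloin muscle, which became -0.13 without control replicate 2 and -0.49 without treated replicate 4. The sirloin value thus changed sign with that library.

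DLL1, the Delta ligand presented by myogenic cells, lay between 5.22 and 15.02 CPM in control and 8.03 and 12.61 CPM in treated round muscle. The sirloin range was 7.40 to 13.23 CPM for control and 5.46 to 11.71 CPM for treated calves. Its diet effects on the log2 scale were -0.06 (95% interval -0.79 to 0.66) and -0.14 (95% interval -0.85 to 0.57).

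Among the receptors, NOTCH1, which is broadly expressed and also used by endothelium, had a log2 fold change near 0 in both muscles. It was 40.94, 27.66, 16.61 and 32.93 CPM in control and 23.63, 34.18, 24.98 and 31.88 CPM in treated round muscle. The sirloin of control replicates 1 to 4 held 36.01, 23.78, 16.37 and 25.90 CPM, and that of treated replicates 1 to 4 held 22.72, 28.07, 15.46 and 39.33 CPM. The diets overlapped in both muscles. Its log2 fold change was -0.02 in round (95% interval -0.64 to 0.59) and 0.04 in sirloin muscle (95% interval -0.64 to 0.72).

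NOTCH2, a receptor of the satellite cell and the vessel wall, stood out in control replicate 2. That calf had 59.95 CPM in its round and 23.32 CPM in its sirloin library. The other control calves had 13.31 to 17.86 CPM in round and 11.76 to 12.80 CPM in sirloin, and treated calves had 11.34 to 19.06 and 12.71 to 19.78 CPM. The round log2 fold change of -0.77 (SE 0.45, adjusted p = 0.864, edgeR) was -0.03 without control replicate 2. The sirloin log2 fold change was 0.07 (SE 0.26), and 0.35 without that calf.

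NOTCH3, the receptor of pericytes and arterial smooth muscle, differed more between calves than between diets. Control replicates 1 to 4 had 7.82, 20.25, 4.01 and 1.70 CPM in round and 4.89, 18.03, 3.64 and 1.80 CPM in sirloin. Treated replicates 1 to 4 had 12.88, 9.47, 8.08 and 2.95 CPM in round and 11.33, 7.14, 4.61 and 4.84 CPM in sirloin. In both muscles the highest and the lowest library were control replicates 2 and 4. Its log2 fold change was 0.01 in round (95% interval -1.40 to 1.41) and -0.03 in sirloin muscle (95% interval -1.38 to 1.33), and 0.88 and 1.01 without control replicate 2. The 10 smooth muscle and pericyte markers, among them ACTA2, MYH11 and RGS5, summed to 308 TPM in the round library of control replicate 2, the highest of the 16, against 132 to 291 TPM elsewhere. In sirloin muscle they summed to 191 TPM in control replicate 2 and to 192 TPM in control replicate 1, which had 4.89 CPM of NOTCH3. Control replicate 2 also had the highest fibroblast marker sums of the control calves, 1503 TPM in round and 452 TPM in sirloin muscle. The part of any cell type in the NOTCH3 values was not tested.

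Of the target genes, HEYL, a HEY family repressor found in vessel mural cells and in muscle, had the lower mean in treated calves of both muscles. The sirloin of control replicates 1 to 4 held 19.99, 19.22, 9.43 and 20.54 CPM, and that of treated replicates 1 to 4 held 9.87, 12.31, 6.22 and 12.48 CPM. For round the control calves had 20.07, 19.39, 11.02 and 24.05 CPM, beside 12.41, 14.96, 11.56 and 14.22 CPM after the treated diet. In each muscle 3 control calves lay above every treated calf, and control replicate 3 lay within or below the treated range. The log2 fold change was -0.76 in sirloin (SE 0.30, 95% interval -1.43 to -0.09) and -0.47 in round muscle (SE 0.27, 95% interval -1.05 to 0.12). edgeR's unadjusted p for sirloin muscle was 0.0295 and the adjusted p 0.876. The sirloin value ran from -0.96 without control replicate 3 to -0.59 without treated replicate 3.

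HES1, a HES family repressor and a classical direct target of the receptor, had its higher mean in treated round muscle. It was 5.82, 13.03, 5.25 and 4.98 CPM in control calves, against 6.15, 18.48, 12.40 and 10.26 CPM in treated calves, in that muscle. Except for control replicate 2, every control calf lay below every treated calf there. Its log2 fold change was 0.72 (SE 0.40, adjusted p = 0.864, edgeR). Without control replicate 2 it was 1.13, at an unadjusted p below 0.05 but an adjusted p = 0.788 by edgeR. Sirloin levels were 6.72 to 12.51 CPM for control and 6.90 to 16.87 CPM for treated calves. The effect there was 0.19 on the log2 scale (SE 0.33), which was -0.08 without treated replicate 4. HES1 and HEYL thus had opposite signs in round muscle, where neither passed the threshold.

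HEY1, a HEY family repressor of endothelial and satellite cells, lay at 2.37 to 6.28 CPM in control round muscle and at 1.78 to 5.37 CPM in treated round muscle. The sirloin range was 2.15 to 4.73 CPM for control and 1.93 to 3.64 CPM for treated calves. Its diet effects on the log2 scale were -0.36 (95% interval -1.35 to 0.63) and -0.19 (95% interval -0.97 to 0.60).

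Between the muscles, the 9 pathway members differed little. The log2 difference of round over sirloin, over both diets, ran from -0.24 for DLL4 to 0.38 for NOTCH2, and edgeR called 0 of 9 at an adjusted p below 0.05 beside 0.0612% of all genes. None of the 9 had an unadjusted p below 0.05, against 6.33% of all genes, and DESeq2, limma-voom and limma on TPM gave 0 at both thresholds. With the calf as a block, HEYL alone had an unadjusted p below 0.05, with a log2 difference of 0.27 (SE 0.11, adjusted p = 0.367, edgeR). Under that setting 2555 of all 22877 genes had an unadjusted p below 0.05, so 1 of 9 is near the background. The diet effect did not differ between the muscles past the threshold for any of the 9 by edgeR, where 0% of all genes were called, and none had an unadjusted p below 0.05 (2.78% of all genes did). DESeq2, limma-voom and limma on TPM gave 0 at both thresholds there too, as did edgeR with the calf as a block. Apart from the fits with that block, the muscles of a calf were not paired, and the intervals below do not take the pairing in. The difference of the diet effects was largest for NOTCH2, at -0.87 (95% interval -2.04 to 0.31), and JAG1, at -0.82 (95% interval -2.09 to 0.45). These were -0.36 for NOTCH2 without control replicate 2 and -0.16 for JAG1 without treated replicate 4.

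A calf's level in one muscle was then set beside its level in the other, over 8 calves and the 9 pathway members, a comparison chosen after the values were seen. HEYL had a Pearson r of 0.93 between its log2 CPM in the pair of muscles (exact permutation test, two-sided, adjusted p = 0.00837 over 9 genes) and a Spearman rho of 0.95 (exact permutation test, adjusted p = 0.0103). NOTCH3 had an r of 0.92 (exact permutation test, adjusted p = 0.00837) and a rho of 0.88 (exact permutation test, adjusted p = 0.0326). Without the 2 calves farthest from the median, r was 0.90 for HEYL and 0.95 for NOTCH3. Calves with much HEYL or NOTCH3 RNA in one muscle thus had much of it in the other. Among 12315 genes with a mean of at least 1 CPM the median r was 0.59, and 2.70% and 3.75% of genes reached the r of HEYL and NOTCH3. With the group means of diet and muscle removed, r was 0.89 and 0.92, and 8.79% and 6.08% of genes reached these values, which were not tested. The permutation shuffled the 8 calves across both diets against no correlation, so a diet difference shared by both muscles enters its r.

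NOTCH1 had an r of 0.80 (exact permutation test, adjusted p = 0.0487), with a rho of 0.79 (exact permutation test, adjusted p = 0.0551), and r was 0.68 without its 2 farthest calves. Of all genes, 17.9% reached its r, and 22.6% did with group means removed. HEY1 had an r of 0.76 (exact permutation test, adjusted p = 0.0815) and a rho of 0.83 (exact permutation test, adjusted p = 0.0461), and 24.9% of genes reached its r (30.5% with group means removed). The r of DLL1, DLL4, NOTCH2 and JAG1 lay between 0.56 and 0.64 and did not pass the threshold. That of NOTCH2 was -0.42 without control replicate 2, but 0.44 without that calf and treated replicate 4, its 2 farthest calves. With group means removed it was 0.72. That of DLL4 was 0.11 without control replicate 3 and treated replicate 4, its 2 farthest calves, and that of JAG1 was 0.83 without control replicate 2 and treated replicate 2. HES1 had an r of -0.06 (exact permutation test, adjusted p = 0.868), and 93.6% of the genes had an r at least as high.

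**Figure D4:**
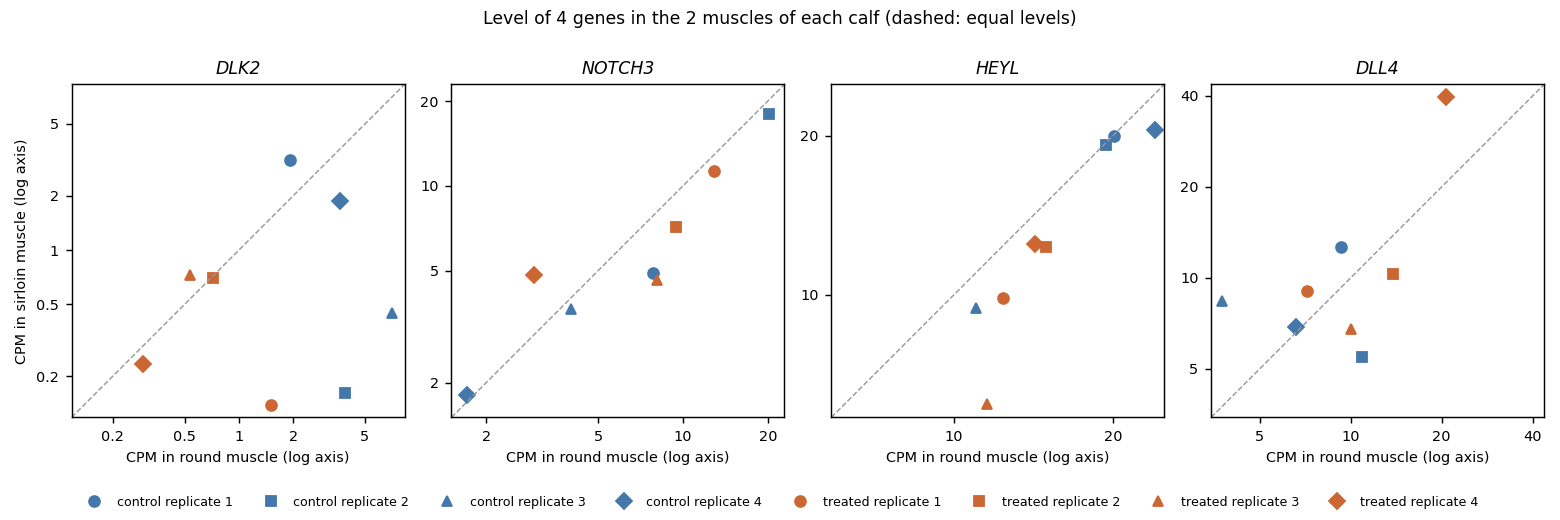
CPM in round muscle against CPM in sirloin muscle of the same calf, both on log axes, for DLK2, NOTCH3, HEYL and DLL4, with 1 point per calf and a dashed line of equal levels. Points for NOTCH3 and HEYL rise together, control replicates 2 and 3 and treated replicate 1 fall far below the line for DLK2, and treated replicate 4 stands above the others for DLL4.

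The rest of the pathway was described with a list of 58 further genes, from ligands and receptor-modifying enzymes to the nuclear complex and its corepressors. By edgeR 0 of 57 tested in round and 0 of 58 in sirloin muscle passed the threshold for diet, and DESeq2, limma-voom and limma on TPM also called 0. At an unadjusted p below 0.05 there were 3 in round (4, 4 and 2 by those tools) and 3 in sirloin muscle (1, 0 and 4), which is near the share of all genes. By edgeR that share was 4.41% in round and 3.91% in sirloin muscle. By DESeq2, limma-voom and limma on TPM it was 863, 855 and 799 of all 21677 genes in round muscle. In sirloin muscle these tools gave 698, 682 and 1056 of all 21776 genes. The list's median log2 fold change was 0.16 in round and 0.03 in sirloin muscle, beside 0.02 and 0.03 over all genes tested. In round muscle 37 of 57 were positive and in sirloin muscle 31 of 58. No share of positive values over all genes was computed for comparison. The round and sirloin muscles differed for 0 of 58 by edgeR, and 3 had an unadjusted p below 0.05, against 6.33% of all genes. The diet effects differed between the muscles for 0 of 58, and 1 had an unadjusted p below 0.05, against 2.78% of all genes. In each, DESeq2, limma-voom and limma on TPM called 0. Those tools gave 2, 2 and 3 genes at an unadjusted p below 0.05 between the muscles, beside 1228, 1278 and 1402 of all 22877 genes. For the difference of the diet effects they gave 0, 1 and 0, beside 290, 387 and 313 of all 22877 genes. With the calf as a block, edgeR called 0 of 58 in both. At an unadjusted p below 0.05 it then gave 4 of 58 between the muscles (2555 of all 22877 genes). For the difference it gave 2 of 58 (865 of all 22877 genes).

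DLK1, the imprinted paralog of DLK2 and a gene of fetal muscle growth, did not share the low values of DLK2 in treated calves. Round libraries held 24.38, 49.08, 13.99 and 23.30 CPM under the control diet, beside 51.90, 27.93, 20.96 and 20.30 CPM under the treated diet. Sirloin libraries held 20.01, 42.17, 11.13 and 14.24 CPM, beside 47.58, 49.34, 15.07 and 39.02 CPM. The groups overlapped in both. The diet effect was 0.16 on the log2 scale in round (95% interval -0.73 to 1.05) and 0.78 in sirloin muscle (95% interval -0.22 to 1.78). The round value was 0.55 without control replicate 2 and -0.25 without treated replicate 1, so its sign rested on single calves. Leaving out control replicate 2 gave 1.31 in sirloin muscle, at an unadjusted p below 0.05 but an adjusted p = 0.825 by edgeR.

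NOTCH4, the endothelial receptor, lay at 11.58 to 25.51 CPM in control round muscle and at 24.21 to 46.04 CPM in treated round muscle, and its log2 fold change was 0.64 (95% interval -0.03 to 1.31). In sirloin muscle its log2 fold change was 0.36 (95% interval -0.33 to 1.06), which was 0.16 without control replicate 2 and 0.17 without treated replicate 4. JAG2, the second Jagged ligand, had log2 fold changes of 0.31 in round and -0.07 in sirloin muscle, and both changed sign with single calves (-0.0929 without treated replicate 1 in round, and 0.35 without control replicate 2 in sirloin). HEY2, the arterial member of the HEY family, had 0.80 and 0.16 (-0.00770 without treated replicate 4), and none of these passed the threshold. DLL3, a Delta family member that does not activate the receptor from outside, was at 0 to 6 counts in all libraries and was not detectable at this depth in most of them.

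MFNG, one of the Fringe enzymes that add sugars to the receptor and tune its choice of ligand, had the higher mean in treated calves, at an unadjusted p below 0.05 in both muscles but not past the threshold. Round libraries had 8.45, 5.48, 4.10 and 4.91 CPM in control calves, beside 8.49, 12.18, 12.62 and 6.20 CPM in treated ones. This gave a log2 fold change of 0.80 (SE 0.33, adjusted p = 0.864, edgeR). Sirloin libraries had 11.38, 6.42, 5.76 and 6.96 CPM in control calves, beside 7.88, 8.26, 8.84 and 69.59 CPM in treated ones, giving a log2 fold change of 1.61 (SE 0.68, adjusted p = 0.876, edgeR). The highest value belonged to the sirloin library of treated replicate 4, and the log2 fold change fell to 0.14 when it was left out. That library also had the most adipocyte (3777 TPM) and endothelial (239 TPM) marker RNA of all libraries. Among sirloin libraries it had the most fibroblast marker RNA (621 TPM) as well. The part of these cell types in the MFNG value was not tested.

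NUMBL, an adaptor related to the Notch inhibitor NUMB, had the lower values in treated sirloin muscle. It was 7.56, 3.63, 11.08 and 11.04 CPM in control calves, beside 2.42, 4.28, 6.19 and 4.15 CPM in treated ones, giving a log2 fold change of -0.97 (SE 0.40, adjusted p = 0.876, edgeR). Control replicate 2 lay within the treated range, and without it the value was -1.22. In round muscle the log2 fold change was -0.68 (SE 0.36).

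HES2, another HES family member, was 3.13, 2.81, 1.12 and 5.55 CPM in control and 1.16, 1.69, 1.29 and 1.04 CPM in treated round muscle, a log2 fold change of -1.26 (SE 0.47, adjusted p = 0.864, edgeR). Without control replicate 4, its highest library, it was -0.84. In sirloin muscle the log2 fold change was -0.56 (SE 0.48).

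HES5 and HES7, targets best known from neural progenitors and the somite clock, rested on few reads. HES5 had 0, 15, 0 and 8 counts in control round muscle and 0 counts in every treated round library, at least 8.51-fold lower if a floor of 3 counts is set for the whole group. HES7 had 0, 0, 4 and 12 counts in control sirloin muscle and 0 in every treated sirloin library, at least 5.64-fold lower with the same floor. In round muscle HES7 had 0, 40, 0 and 24 counts in control and 6, 0, 8 and 3 counts in treated calves. Each of these differences came from 2 control calves, and the bounds cover counting error only.

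NEURL1, a ubiquitin ligase that promotes ligand endocytosis, had the higher mean in sirloin muscle, with a log2 difference of round over sirloin of -0.33 (SE 0.15, adjusted p = 0.775, edgeR). It ranged from 73.3 to 138 CPM in round and from 101 to 168 CPM in sirloin muscle. DNER, a non-canonical ligand of the nervous system, had at most 10 counts in any library. For the difference of the diet effects, MIB2, a ubiquitin ligase acting on Delta, had 0.62 (SE 0.36) and ADAM17, a protease that cuts receptors, -0.57 (SE 0.32), and neither passed the threshold.

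TLE1, a Groucho family corepressor, was the only gene of the 57 tested whose groups did not overlap in round muscle, where 1.76% of all genes did so. This share is at the background, and the gene is named after its values were seen. Control calves had 7.81 to 9.51 CPM and treated ones 4.01 to 7.10 CPM, giving a log2 fold change of -0.58 (95% interval -1.17 to 0.00). In sirloin muscle its groups overlapped, with a log2 fold change of -0.61 (95% interval -1.57 to 0.34), and no gene of the list had groups that did not overlap there.

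**Figure D5:**
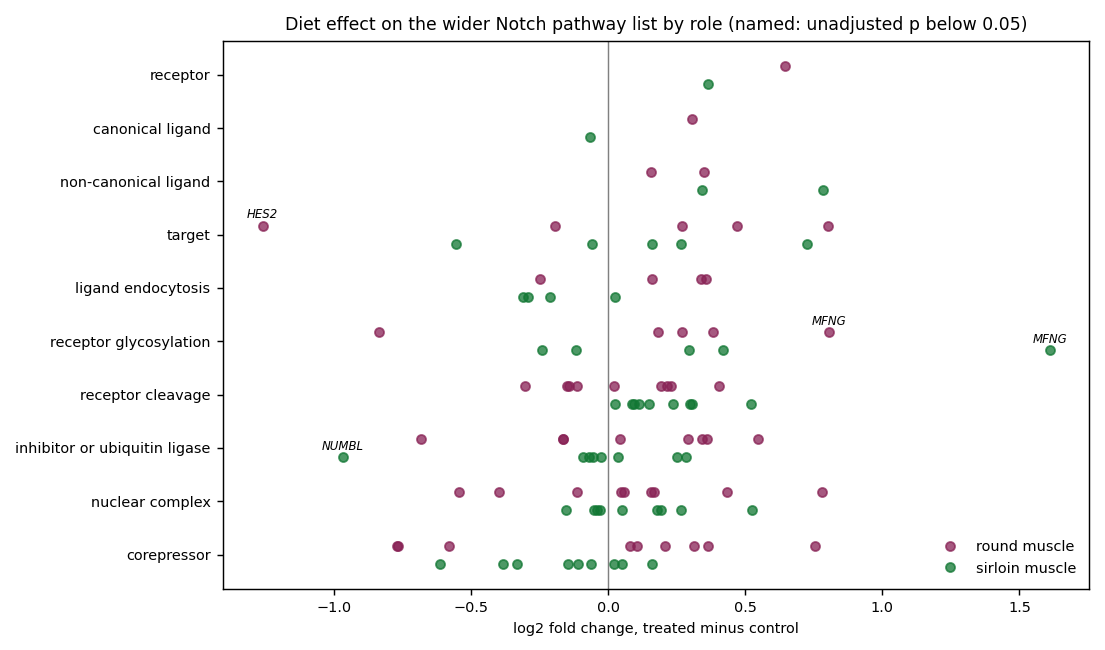
Log2 fold change of treated over control calves in round and sirloin muscle for 53 of the 58 further pathway genes, grouped by role, leaving out genes below a mean of 0.1 CPM or with a group at 0 throughout. Names mark genes with an unadjusted p below 0.05: HES2 at -1.26 and MFNG at 0.80 in round, and NUMBL at -0.97 and MFNG at 1.61 in sirloin muscle.

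The genes whose pattern was most like that of DLK2 were not Notch genes. Ranked by Pearson r of log2 CPM over 16 libraries among 12314 genes, they were FLNC at 0.93, NEXN at 0.91, ENAH at 0.90, KPNA1 at 0.89 and CNN1 at 0.89. FLNC (filamin C), NEXN (nexilin), ENAH and CNN1 (calponin 1) encode actin-binding proteins, and KPNA1 an importin. Round levels of ENAH were 692 ± 85.8 CPM for control and 125 ± 46.2 CPM for treated calves, and its sirloin levels were 215 ± 206 and 52.2 ± 14.2 CPM (SD, n = 4 in each). Those of FLNC were 13469 ± 5764 and 5803 ± 2519 CPM in round, and 5536 ± 4554 and 3111 ± 1277 CPM in sirloin. Like DLK2, all 5 genes had their highest group mean in control round muscle, and since the points share the contrast on which DLK2 was chosen, the r values are a description.

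With the 4 group means removed, the 5 genes nearest to DLK2 were FLNC, SRF, TJAP1, DTNA and AMPD3, so 1 of 5 was shared, and r for FLNC was 0.87. SRF encodes serum response factor, a transcription factor of actin cytoskeleton genes. Without removal of group means, which leaves in the contrast DLK2 was chosen on, the 9 Notch pathway members had r values with DLK2 from -0.65 for HES1 and -0.41 for DLL4 to 0.38 for HEYL and 0.39 for HEY1, and at 1352 HEY1 ranked the highest of them.

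TJAP1 is the next protein-coding gene beside DLK2 in the ARS-UCD2.0 annotation, used here for gene order only. Its r with DLK2 was 0.89, and 0.84 with group means removed. Its log2 fold change of treated over control was -0.69 (SE 0.27) in round and -0.68 (SE 0.35) in sirloin muscle. On the other side, the annotated end of ABCC10 overlaps DLK2, so reads in the overlap cannot be assigned with certainty where counting did not use the strand. ABCC10 had an r of -0.39 with DLK2 and log2 fold changes of 0.37 (SE 0.57) and 0.19 (SE 0.66). Both neighbours were chosen for their place after the values of DLK2 were seen.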

How the data were processed

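Bulk RNA-seq of round and sirloin muscle of 8 calves (16 libraries) was used. The authors deposited whole-number read counts without normalization and TPM values per gene. Per the labels, Trimmomatic, STAR, featureCounts and DESeq2 were listed with build ARS-UCD1.2 and poly(A) selection, whereas the methods name HISAT2, Bowtie2, StringTie and rRNA and globin removal. This was not settled. The methods name a stranded kit, and whether counting used the strand is not given in the sources used here. The deposited comparison tables hold the authors' fold changes and p-values and were not used. Symbols came from the ARS-UCD2.0 annotation for 30762 of 34109 gene IDs (90.2%), and no coordinates are given.

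Counts with at least 1 read in any library of a fit were tested by edgeR 4.0.16 (TMM, glmQLFit and glmQLFTest, two-sided, Benjamini-Hochberg over all genes, threshold 0.05) in R 4.3.3, for diet in each muscle, and for muscle and the difference of the diet effects over 4 groups of libraries. The fits for muscle and for the difference did not pair the muscles of a calf, except where the calf is named as a block. All 10 members passed the filterByExpr filter in each fit. The standard error was the log2 fold change divided by the square root of F, and 95% intervals used the fit's degrees of freedom. CPM used TMM factors over 16 libraries and a prior count of 2 on the log2 scale. Alternatives were DESeq2 1.42.0, limma-voom and limma on log2(TPM + 0.1) (limma 3.58.1), RLE normalization, filterByExpr, all 16 libraries, blocks and leaving out each calf. The steps were tested on simulated data, in which 200 genes were given a log2 change of 2. At the adjusted threshold 76% of them were recovered for diet in round and 78.5% in sirloin muscle. For muscle 96.5% were recovered, and for the difference of the diet effects 36%, so many such differences would be missed. False calls in these 4 fits numbered 14, 13, 5 and 1.

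Named were all members, DLK1, NOTCH4, JAG2, DLL3, HEY2 and HES5, the 3 list genes with the smallest p in each comparison, and the 5 genes most like DLK2. TLE1, TJAP1, ABCC10, SRF, DTNA and AMPD3 were named after their values were seen. Members and lists were chosen with earlier results of these data known. The labels number calves 1 to 4 within a diet in both muscles. After removal of group means, the muscles sharing a number correlated at 0.250 to 0.595, against -0.342 to 0.281 for other pairs across muscles, and 8 of 8 round libraries were closest to the sirloin library of their own number, so the calf pairs the muscles. Depth was 44473011 to 72446933 counts per library. PAX7 was not matched, so 5 of 6 satellite cell markers were used.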

Additional observations from a re-analysis of the deposited data

Results flagged for a closer look

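In 10 of the 40 sets of 4 libraries checked (10 genes in 4 groups), 1 library stood apart from the other 3 by Dixon's criterion (gap over range above 0.829). For independent, normally distributed values chance gives about 1 in 20, or 2 sets. The 10 genes were read in the same libraries, so the sets are not independent and the excess over 2 cannot be weighed. Control replicate 2 accounted for 5 of them: NOTCH2 at 59.9 CPM in round and 23.3 CPM in sirloin muscle, JAG1 at 27.5 CPM and HES1 at 13.0 CPM in round muscle, and DLL1 at 13.2 CPM in sirloin muscle. Treated replicate 4 accounted for 3: JAG1 at 14.6 CPM in round and 31.3 CPM in sirloin muscle, and DLL4 at 39.5 CPM in sirloin muscle. The others were low libraries of sirloin muscle, HEY1 at 1.93 CPM in treated replicate 1 and HEYL at 9.43 CPM in control replicate 3. DLK2 had no such library in any group.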

How the results depend on the processing

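Counts of genes called over the whole table moved most. In round muscle, 4 genes by edgeR became 45 by DESeq2, 1 by limma-voom, 1 by limma on TPM (an alternative added after seeing the data) and 2 with the replicate block, and 0 to 3 when 1 calf was left out. In sirloin muscle, 2 became 13 by DESeq2, 0 by limma-voom, 1 by limma on TPM, 0 with the replicate block and 0 to 1 with a calf left out. Between the muscles, 14 became 84 by DESeq2 and 109 with the calf as replicate block, which also gave 1 gene for the difference of the diet effects in place of 0. Of the members and the further list, DESeq2 called 1 in round muscle, DLK2 (log2 fold change -2.42), the gene chosen on that contrast, and every other setting run called 0 in all 4 comparisons.

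Replicate numbers did not pair calves across diets (correlations of same-numbered calves -0.0672 to 0.188 in round and -0.154 to 0.165 in sirloin muscle), so the replicate block there is only an alternative.

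Log2 values of members near 0 changed sign under other settings, none past the threshold, and the cause was not tested. In round muscle NOTCH1 was 0.0304 by limma-voom, 0.13 by limma on TPM and 0.0379 with the replicate block, NOTCH3 -0.00797 with filterByExpr and -0.0205 in the fit of all 16 libraries, and DLL1 0.10 on TPM and 0.00983 with the replicate block. In sirloin muscle NOTCH3 was 0.28 by limma-voom, 0.51 on TPM and 0.43 with the replicate block, HEY1 0.0261 on TPM and JAG1 -0.0160 with the replicate block. For the difference of the diet effects, NOTCH3 was -0.0129 by limma-voom, -0.10 on TPM and -0.0512 with the calf block, and DLL4 0.0271 on TPM and 0.0922 with the calf block.

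With 1 calf left out, round values ran from -0.22 to 0.17 for NOTCH1, -0.33 to 0.88 for NOTCH3 and -0.28 to 0.16 for DLL1. Sirloin values ran from -0.20 to 0.26 for NOTCH1, -0.0418 to 0.35 for NOTCH2, -0.37 to 1.01 for NOTCH3, -0.33 to 0.0875 for DLL1, -0.49 to 0.53 for JAG1 and -0.0824 to 0.35 for HES1. Round against sirloin ran from -0.36 to 0.0180 for HES1 and -0.41 to 0.0467 for DLL4. The difference of the diet effects ran from -0.12 to 0.15 for NOTCH3, -0.42 to 0.36 for DLL4, -0.0527 to 0.26 for DLL1, -0.20 to 0.0949 for NOTCH1 and -0.40 to 0.0198 for HEY1. Between the muscles of a calf, r for NOTCH2 was -0.42 without control replicate 2, and r for HES1 was 0.0805 without its 2 farthest calves and 0.12 on TPM.

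With 4 calves a group and DLK2 at 7 to 300 reads per library, its interval in sirloin muscle spans more than 3 log2 units. The TPM pseudocount of 0.1 pulls low levels together.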

Other observations

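Other cell type markers were summed on the TPM scale in the same libraries. The 5 matched satellite cell markers (MYF5, CALCR, CHRDL2, SDC4 and CDH15) had their lowest sums in control replicate 2 sirloin (34.6 TPM) and treated replicate 1 sirloin (43.1 TPM), and their highest in control replicate 1 round (220 TPM). The 5 immune markers, among them PTPRC and CD68, lay between 4.17 and 24.1 TPM, with the top value in treated replicate 2 sirloin.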
